A study of Mus musculus with 8 samples.

Results

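Fos, Fosb, Jun, Junb, Jund, Egr1, Atf3, Ier2, Ier3 and Dusp1 are immediate early genes, whose transcripts rise within minutes of a stimulus without prior protein synthesis. They were taken as every feature of the array whose annotated gene symbol is one of these 10. All 10 genes were on the array, with 31 of its 45018 features. Of these, 30 features, at least 1 for each gene, had a value on all 8 arrays, and the 10 genes stand among 15346 tested.

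The liver was taken from male and female C3H/HeN mice of 8 weeks. The control mice had vehicle and the treated mice 25 µg/kg recombinant murine IL1-beta, by intraperitoneal injection every other day for 2 weeks. All livers were collected 1 h after the last injection, so each treated sample holds a repeated exposure with a recent last dose. The 4 groups, from vehicle or IL1-beta in either sex, had 2 arrays each. The labels call these biological replicates without naming separate animals, so the p-values measure only the spread between such arrays. Per the labels, every array set liver RNA (Cy5) against universal mouse reference RNA (Cy3), a pool of 11 mouse cell lines. By these labels values are log2 ratios of liver over pool. In them 1 unit is a 2-fold difference and 0 means equal signal in both channels.

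Fos and Jun proteins pair through leucine zippers into the transcription factor AP-1, and Atf3 belongs to the same bZIP class. Egr1 is a zinc finger factor. In many cell types MAP kinases act on factors already bound at the promoters of these genes, and Dusp1, a phosphatase, closes the loop by removing phosphate from those kinases. In liver this program is known for its part in the first response to injury, cytokines and partial hepatectomy, and the transcripts are short-lived.

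The arrays fell into 2 kinds. On the 4 IL1-beta arrays 10 hepatocyte markers had medians of 5.95 to 6.41 and 9 cell cycle genes had medians of -3.99 to -3.39, and these arrays correlated with each other at r = 0.942 to 0.973 across genes. The 4 arrays labelled control had hepatocyte medians of -0.29 to 0.19, near equal signal in both channels, and cell cycle medians of -0.71 to 0.55. There female and male arrays correlated at r = -0.722 to -0.478. Xist read -4.94 and -4.57 on those labelled female and 5.40 and 5.78 on those labelled male, against the labels. Y-linked Eif2s3y read 10.03 and 10.80 on those labelled female and -9.17 and -10.56 on those labelled male, and Uty and Kdm5d had the same signs. The direction of the control arrays is therefore not settled. They do not show the liver over pool profile of the IL1-beta arrays, although so labelled. What their 2 channels hold cannot be told from these values. Comparisons of the members that use them are given as labelled and then with the sign turned. For the other gene lists the labelled sign is printed, and turning it reverses every such difference between the control arrays. The IL1-beta arrays read Xist at 2.11 and 1.52 in females and -4.32 and -4.36 in males, as labelled. Depth in signal over background is unknown, and the number of arrays limits the precision.

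Promoters of 3 genes are shown because their values set the pattern described below: Fos moved against Jun and Dusp1 on the control arrays. Each window runs from 250 bases before to 50 bases after the RefSeq gene start (GRCm38.p6) and reads 5′ to 3′ on the gene's strand. Capitals mark matches on either strand to TGACGT, the core of the cyclic AMP response element, or to TGANNTCA, a form bound by Jun and ATF dimers. The motifs overlap where TGANNTCA holds TGACGT.
Fos promoter, chr12:85473640-85473939, plus strand: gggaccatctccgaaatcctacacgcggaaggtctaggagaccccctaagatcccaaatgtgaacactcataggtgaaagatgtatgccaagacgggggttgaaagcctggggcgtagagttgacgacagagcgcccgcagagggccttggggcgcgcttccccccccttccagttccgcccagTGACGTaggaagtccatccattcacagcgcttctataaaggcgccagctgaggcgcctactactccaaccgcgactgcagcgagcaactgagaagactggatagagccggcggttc
Jun promoter, chr4:95052173-95052472, minus strand: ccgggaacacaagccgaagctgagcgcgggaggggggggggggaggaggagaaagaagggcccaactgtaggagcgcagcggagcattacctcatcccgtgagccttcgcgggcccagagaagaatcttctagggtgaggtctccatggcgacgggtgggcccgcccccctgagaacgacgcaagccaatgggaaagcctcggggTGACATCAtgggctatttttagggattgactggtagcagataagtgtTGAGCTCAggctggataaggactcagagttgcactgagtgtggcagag
Dusp1 promoter, chr17:26508423-26508722, minus strand: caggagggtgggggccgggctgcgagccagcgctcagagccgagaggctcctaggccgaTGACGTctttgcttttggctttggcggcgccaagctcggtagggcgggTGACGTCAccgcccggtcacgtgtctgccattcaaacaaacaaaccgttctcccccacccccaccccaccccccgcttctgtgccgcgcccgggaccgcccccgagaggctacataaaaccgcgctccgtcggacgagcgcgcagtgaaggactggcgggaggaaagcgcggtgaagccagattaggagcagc

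Fos held a TGACGT match at position -66 from the gene start, and Dusp1 held 3 such matches, of which 2 lie within a single palindrome. Jun held no TGACGT but 2 TGANNTCA matches, of which the first is at position -45. Of 8 member promoters found in the table, TGACGT occurred in 3 (Fos, Atf3, Dusp1) and TGANNTCA in 3 (Jun, Jund, Dusp1). Among 32851 promoters of the same length the shares were 7.51% and 14.1%. Neither the AP-1 element TGANTCA nor the CArG box, the site of serum response factor, was found in these 8 windows (7.81% and 1.63% of all promoters). A kB site, the element of NF-kB, matched in 3 of the 8, at -214 in Fos, -188 in Fosb and -92 in Ier3 (4.51% of all promoters). The letters TATAAA matched in 2, at -33 in Fos and 1 in Junb (13.6% of all promoters). Promoters of Egr1 and Ier2 were not found in the table, so they were not searched. Sites outside these windows were not searched either, so an absent match holds for the windows only.

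**Figure D1:**
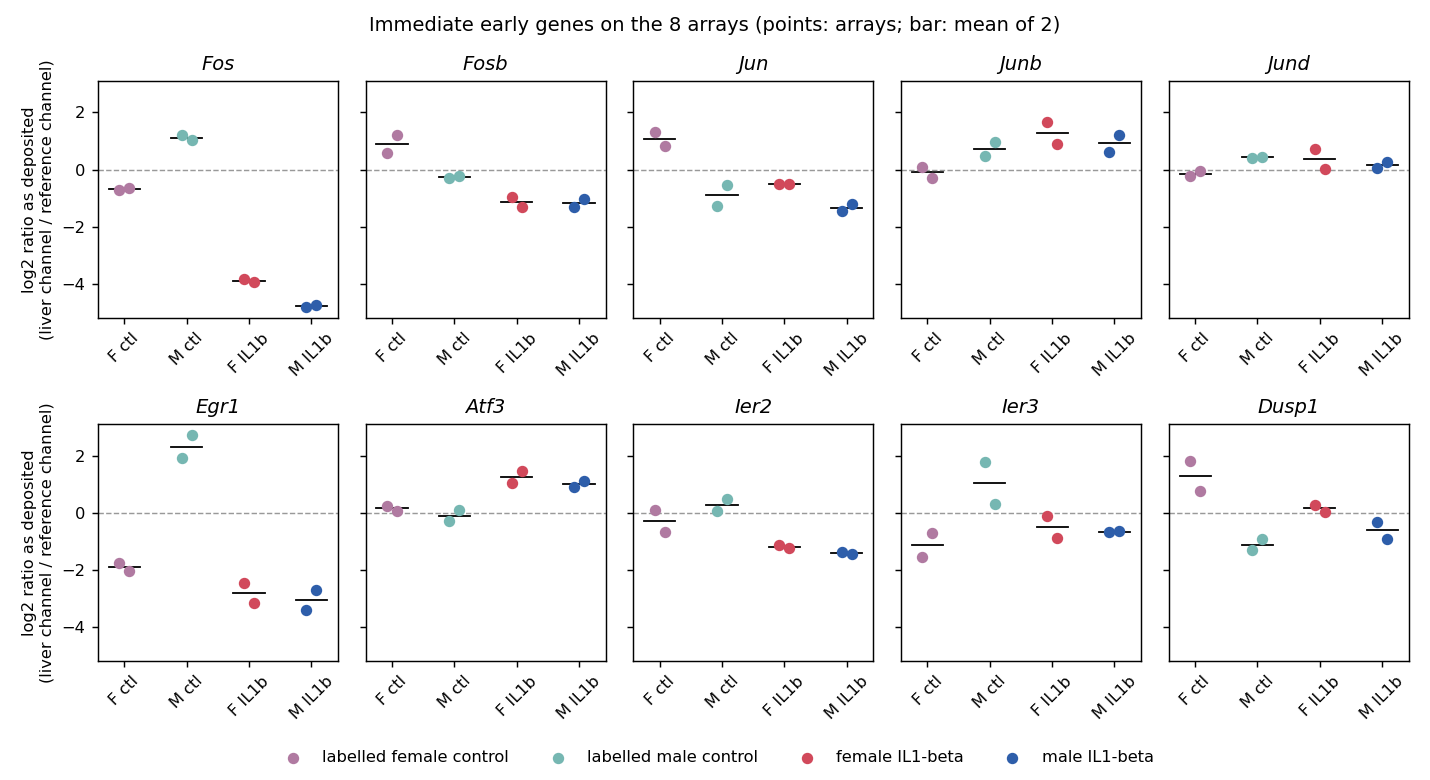
Log2 ratio (y axis, as deposited and converted to log2) of each of the 10 genes on the 8 arrays, by group (x axis). Points are arrays and bars are means of 2. Fos ranged from -4.81 to -3.83 after IL1-beta, and Fos, Egr1, Jun and Dusp1 changed sign between the arrays labelled female and male control.

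On the IL1-beta arrays Fos was the member farthest from the pool. It read -3.83 and -3.93 in females and -4.81 and -4.73 in males. All 4 arrays put it within the lowest 1.21% of genes by ratio, at a mean of -4.33 ± 0.51 (SD, n = 4 arrays), so that the pool signal was 20.1 times that of liver. The 2 female arrays lay close together and above the 2 male arrays. In bulk liver, fewer cells of a type and less RNA per cell cannot be told apart, and a ratio also falls when the pool holds more of a transcript.

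The 10 features of the Fos RefSeq transcript agreed closely on the IL1-beta arrays. Their SD within an array was 0.03 on each female and 0.05 to 0.06 on the male IL1-beta arrays, which is spread within an array and not between samples. On the control arrays, where the ratios are small, it was 0.10 to 0.29. An 11th Fos feature, annotated to another sequence entry of the gene, read otherwise. It had no value on 2 arrays, and stood at 0.79 (female 2), 0.79 (male 1) and 1.85 (male 2) on the IL1-beta arrays, where the other 10 were near -4. It was left out of the gene mean because of the missing values.

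**Figure D2:**
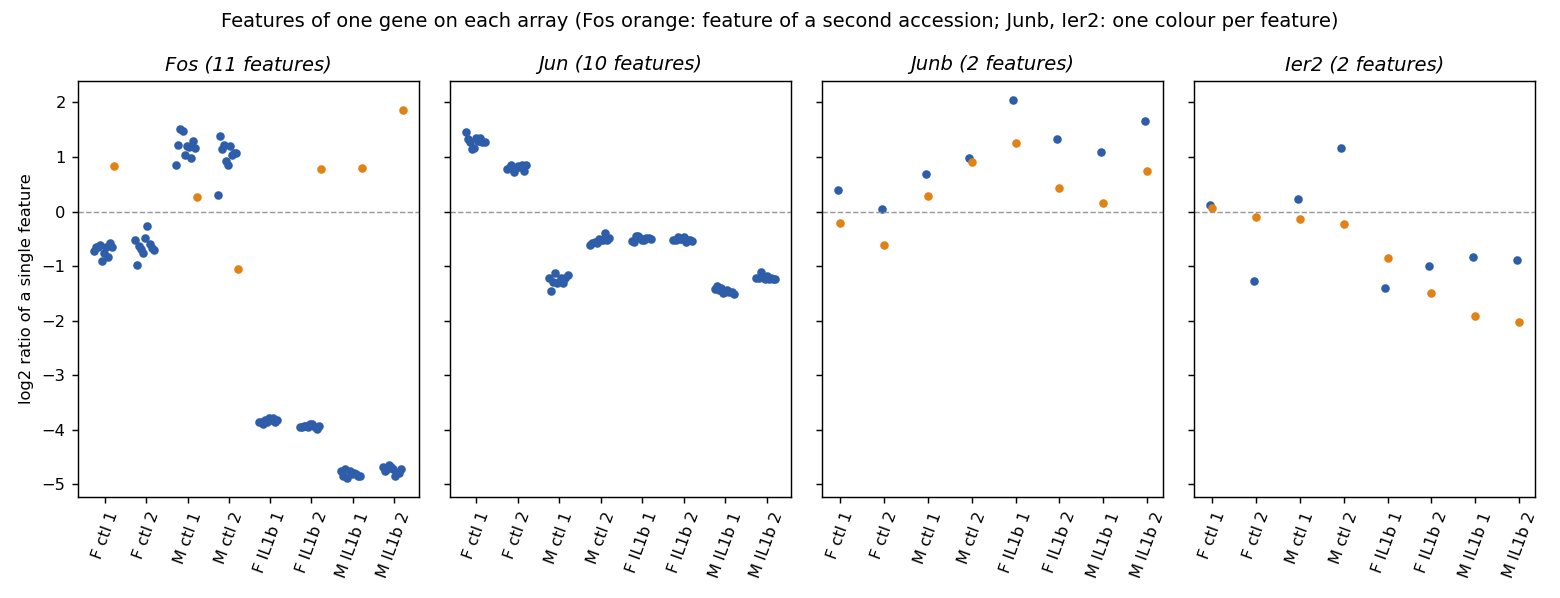
Log2 ratio (y axis) of every single feature of Fos, Jun, Junb and Ier2 on each array (x axis). Points are features. The 10 features of the Fos transcript coincide closely while the 11th (orange) stands apart, and the 2 Ier2 features diverge on the male IL1-beta arrays.

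Fosb, a Fos relative that also needs a Jun partner, read -0.97 and -1.30 in females and -1.32 and -1.03 in males. The sexes overlapped. Jun, the main Fos partner, had 10 features that differed by at most 0.14 within an IL1-beta array. It read -0.50 and -0.51 in females and -1.45 and -1.21 in males, so the 2 sexes did not overlap. Junb, which competes with Jun for partners, lay above the pool at 1.65 and 0.88 in females and 0.63 and 1.21 in males. Its 2 features differed by 0.80 to 0.94 on each IL1-beta array, with the same ranking throughout. Jund, the Jun member that most cells make constantly, read 0.73 and 0.00 in females and 0.04 and 0.28 in males, the nearest to the pool of the Jun genes by its mean of 0.26 ± 0.34 (SD, n = 4 arrays).

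Egr1, a factor that serum, growth factors and stress induce, read -2.46 and -3.16 in females and -3.39 and -2.71 in males. The arrays of the sexes overlapped. Atf3, a stress-induced repressor that inflammatory signals also raise, was above the pool on every IL1-beta array, at 1.04, 1.45, 0.91 and 1.11 in the order female 1 and 2, male 1 and 2. Its range was narrow and the sexes overlapped.

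Ier2, a small nuclear protein, read -1.12 and -1.25 in females and -1.37 and -1.46 in males. Its 2 features disagreed about the order of the sexes: the female minus male difference was -0.33 ± 0.50 (SE) for the first and 0.79 ± 0.25 for the other, which read -0.86 and -1.49 in females and -1.91 and -2.02 in males. Neither difference passed over all features (limma adjusted p = 0.967 and 0.448). Ier3, which NF-kB induces and which modulates cell survival, read -0.13, -0.87, -0.68 and -0.63 in the same order. Dusp1 read 0.29 and 0.03 in females and -0.31 and -0.93 in males, on either side of 0 by sex.

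As a set, 3 of 10 members (Fos, Egr1, Ier2) were more than 2-fold below the pool on all 4 IL1-beta arrays, where 18.9% of all genes were. None of the 10 was more than 2-fold above it on all 4 (17.8% of all genes). Below 0 on all 4 were 6 members (43.9% of all genes) and above 0 were 3, Junb, Jund and Atf3 (37.5%). The median of the members was -0.75 and that of all tested genes -0.11, so centring the arrays shifts every value by about 0.1. With so few members, these shares are descriptions.

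Other early genes lay in both directions on the same arrays. Of all genes 17.8% were over 2-fold above the pool on all 4 arrays and 18.9% below. Of 20 other AP-1, ATF and small Maf factors, 6 were above by this rule and 2 below. Above were Cebpb (1.89 to 2.38) and Cebpd (1.33 to 2.44), acute phase regulators, with Batf, Batf2, Crem and Creb3l3, and below were Fosl1 (-2.95 to -2.64) and Atf4. Of 23 other immediate early transcription factors, 3 were above (Csrnp1, Irf1, Tsc22d3) and 6 below, among them Nr4a2, an orphan nuclear receptor (-3.13 to -2.70). Of 34 feedback and signalling genes, 12 were above and 10 below. Among the 12 were the NF-kB inhibitor Nfkbia (2.18 to 3.32), Socs3, an inhibitor of cytokine receptors (1.29 to 2.44), and Zfp36, which speeds decay of AU-rich transcripts (1.32 to 1.70). Among the 10 was Plk2, a polo-like kinase (-4.45 to -3.36). Genes were named here after their values were seen. Of 24 MAP kinase and SRF input genes 3 were above and 4 below. Of 12 stress and heat shock genes 0 were above and 4 below.

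The question whether males and females differed under IL1-beta was read from these 4 arrays. The female value of Fos exceeded the male one by 0.89 ± 0.17 (log2 ± SE, 2 arrays of each sex), a 1.85-fold difference. Its unadjusted p was 0.00147 in the limma fit. It did not pass over all genes (adjusted p = 0.188) and stood 120th by p among 15346 genes. The interval of the difference was 0.47 to 1.30. The 11th Fos feature read 0.79 on the female array 2 and 0.79 and 1.85 on the male arrays. With it taken into the mean where it had a value, the Fos difference was 0.55 ± 0.21 (limma adjusted p = 0.566). Jun was higher by 0.82 ± 0.30 (unadjusted p = 0.0275, limma adjusted p = 0.490) and Dusp1 by 0.78 ± 0.38 (adjusted p = 0.702). Their intervals were 0.12 to 1.53 and -0.13 to 1.69. With the 4 IL1-beta arrays fitted alone, the SE was 0.20 for Fos and 0.21 for Jun. Neither passed there (limma adjusted p = 0.383 and 0.424).

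By limma, 0 of 10 members passed at an adjusted p of 0.05, where 0.163% of all genes did. At an unadjusted p under 0.05 there were 2 (Fos and Jun), where 8.28% of all genes were. The arrays of the sexes did not overlap for 4 members, Fos, Jun, Ier2 and Dusp1, where 36.9% of all genes did not. All 4 were higher in females, as were 18.0% of all genes. The other 6 had differences of 0.04 (Fosb) to 0.35 (Junb), and each interval held 0. For Egr1 the interval ran from -0.67 to 1.15 and for Ier3 from -1.08 to 1.40, so differences of over 2-fold are within these intervals.

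The other early genes also had none passing. Of all genes 8.28% had an unadjusted p under 0.05. In the list of other immediate early transcription factors 5 of 23 had an unadjusted p under 0.05, with Tsc22d3, a glucocorticoid-induced gene, at 1.11 ± 0.19 (limma adjusted p = 0.129) and Ier5 at 0.97 ± 0.23 (adjusted p = 0.281). Feedback and signalling genes had 10 of 34, with Plk2 at 0.98 ± 0.18 (adjusted p = 0.156) and the phosphatase Dusp10 at 1.81 ± 0.38 (adjusted p = 0.223). Other AP-1, ATF and small Maf factors had 1 of 20, Batf at -0.73 ± 0.22 (adjusted p = 0.380), with Mafk next at -0.50 ± 0.23 (adjusted p = 0.649). MAP kinase and SRF input had 1 of 24, Map3k5 at -0.87 ± 0.31 (adjusted p = 0.483), with Mrtfa, a coactivator of SRF, next at -0.35 ± 0.18 (adjusted p = 0.736). Stress and heat shock genes had 3 of 12, among them Cdkn1a, a cell cycle inhibitor, at 1.01 ± 0.26 (adjusted p = 0.322) and Hmox1, which breaks down haem, at -2.32 ± 0.68 (adjusted p = 0.374).

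No cell marker passed between the sexes under IL1-beta by limma. This holds for the lists of hepatocyte (10 genes), Kupffer cell (10), neutrophil (8), T, B and NK cell (11), endothelial (10), stellate (10), bile duct (5), adipose (6), erythroid (3) and cell cycle genes (9). Their unadjusted p was under 0.05 for 3, 1, 0, 2, 2, 0, 0, 0, 0 and 0 genes in that order (8.28% of all genes). Endothelial medians were 2.66 and 2.79 in females against 2.38 and 2.38 in males, and hepatocyte medians were 5.95 and 6.08 against 6.16 and 6.41. The part of either in the values of Fos and Jun was not tested.

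On the arrays labelled control the members were far apart. Egr1 read -1.76 and -2.03 on the arrays labelled female and 1.91 and 2.72 on those labelled male, a difference of -4.21 ± 0.38 (labelled female minus labelled male, limma adjusted p = 0.00100). Fos read -0.70 and -0.63 against 1.19 and 1.02 (-1.77 ± 0.17, adjusted p = 0.00134). Ier3 read -1.54 and -0.70 against 1.77 and 0.31 (-2.16 ± 0.52, adjusted p = 0.0292). These 3 genes lay on the side of Xist, with higher ratios on the arrays labelled male.

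The opposite side held Dusp1, Jun and Fosb. Dusp1 read 1.80 and 0.77 on the arrays labelled female and -1.31 and -0.93 on those labelled male (2.40 ± 0.38, adjusted p = 0.00732). Jun read 1.30 and 0.81 against -1.26 and -0.52 (1.94 ± 0.30, adjusted p = 0.00621). Fosb read 0.58 and 1.20 against -0.30 and -0.23 (1.15 ± 0.26, adjusted p = 0.0236). By their gene means Fos and Jun, partners in AP-1, thus stood on opposite sides of these arrays with no overlap between the labels. The 11th Fos feature, left out of the mean, did not share the order of the other 10. It read 0.84 on the female control array 1 and 0.26 and -1.05 on those labelled male. On the female control array 2 it had no value.

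In all 6 of 10 members passed, where 21.4% of all genes did. Of these 3 were higher on the arrays labelled female (9.30% of all genes) and 3 lower (12.1%). Arrays did not overlap for 8 members, where 67.4% of all genes did not. After quantile normalization 8 passed (44.1% of all genes), with Junb and Jund added on the side of Fos. The SD over genes was 0.66 to 0.74 on the control arrays and 1.99 to 2.07 on the IL1-beta arrays. That setting gives all arrays 1 distribution and so widens the control values. Junb (0.09 and -0.29 against 0.49 and 0.95) and Jund (-0.23 and -0.06 against 0.40 and 0.45) did not overlap but did not pass, at -0.81 ± 0.35 and -0.57 ± 0.27. Atf3 differed by 0.25 ± 0.23 and Ier2 by -0.55 ± 0.29, each with overlapping arrays. Fosb no longer passed without the female control array 2 (adjusted p = 0.0972), the male control array 1 (0.105) or 2 (0.0753). Ier3 no longer passed without the female control array 1 (0.126) or 2 (0.0541), the male control array 1 (0.108), or either male IL1-beta array (0.0548). With the control groups fitted alone 4 members passed (13.4% of all genes), without Fosb (0.0623) and Ier3 (0.0853). Ier3 also no longer passed with exact zeros kept as values (0.0716).

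The fit treats the 4 control arrays as separate samples. With each pair of same-number arrays taken as a single replicate, 4 members passed (7.08% of all genes), Egr1 (adjusted p = 0.0109), Fos (0.0171), Jun (0.0341) and Dusp1 (0.0376). Fosb (0.0900) and Ier3 (0.0929) did not pass. This form was chosen after the data had been seen.

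Marker genes of other cells moved with the same arrays. Over all genes 12.1% passed on the side of Xist and 9.30% opposite. On the side of Xist were 6 of 6 adipose, 8 of 10 Kupffer cell, 7 of 10 stellate, 4 of 10 endothelial, 3 of 8 neutrophil and 2 of 5 bile duct markers, with 0 opposite. T, B and NK cell markers had 6 of 11 there and 2 opposite, and erythroid markers 1 of 3 each way. Of 10 hepatocyte markers and 9 cell cycle genes 0 passed by limma (3 and 3 with an unadjusted p under 0.05). Adipose medians were -2.91 and -3.25 on the arrays labelled female, and 0.91 and 4.17 on those labelled male. Kupffer cell medians were -1.12 and -0.80 against 0.96 and 0.66. Stellate medians were -0.65 and -0.50 against 1.09 and 0.87. The part of these cells in the values of Fos, Egr1, Jun and Dusp1 was not tested.

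Among the other early genes, 8 of 23 transcription factors passed on the control arrays, 4 each way. Beside this and each count below, 21.4% of all genes passed. Of all genes 9.30% were higher on the arrays labelled female and 12.1% lower. Klf6, a zinc finger factor (-1.26 ± 0.21), was on the side of Fos. Nr4a2 (1.14 ± 0.20), Csrnp1 (1.02 ± 0.19) and Klf10 (1.53 ± 0.31) were on the side of Jun. Of 34 feedback and signalling genes 3 were higher on the arrays labelled female and 4 lower, with Plk2 (1.13 ± 0.18) and Trib1 (0.94 ± 0.19) against the nuclear phosphatase Dusp2 (-1.64 ± 0.32) and the kinase Sgk1 (-0.98 ± 0.21). The remaining lists had few passing genes: Jdp2, an AP-1 repressor, of 20 other AP-1, ATF and small Maf factors (-1.69 ± 0.33), and Map3k8, a kinase upstream of ERK, of 24 MAP kinase and SRF input genes (-1.08 ± 0.24). Of 12 stress and heat shock genes Cdkn1a (-2.25 ± 0.26) and Hspb1 (-1.19 ± 0.23) passed. The adjusted p of these genes, from the same limma fit, lay between 0.00240 (Cdkn1a) and 0.0211 (Map3k8).

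**Figure D3:**
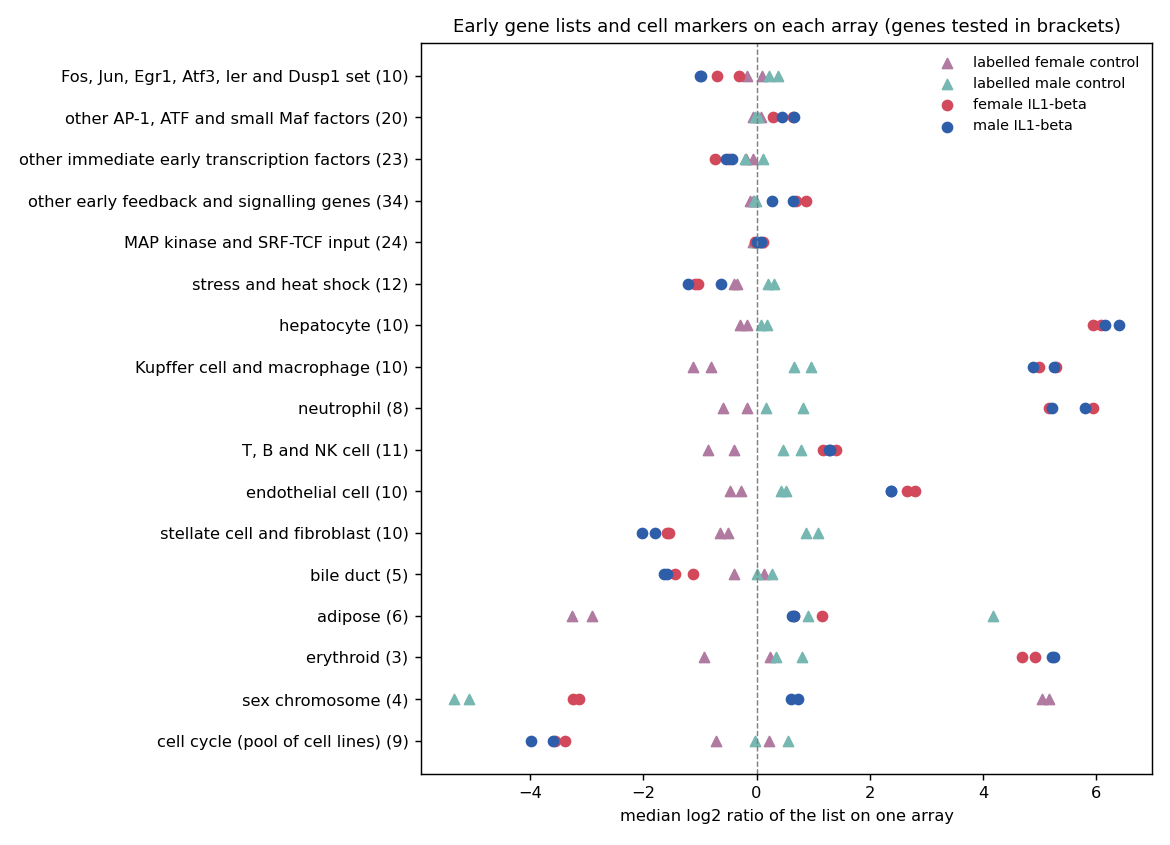
Median log2 ratio (x axis) of each gene list (y axis, genes tested in brackets) on every array. Circles are IL1-beta arrays and triangles are arrays labelled control. Hepatocyte medians were 5.95 to 6.41 after IL1-beta and -0.29 to 0.19 elsewhere, and adipose medians spread from -3.25 to 4.17 on the arrays labelled control.

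With the sign turned and the difference divided by 2, the form in which mirrored arrays count 1 contrast once, Fos stood at 0.89 ± 0.13 (SE) on the side of Xist. The SE of these turned values takes each same-number pair as a single replicate, whereas the fit to 4 separate arrays gave 0.09 for Fos. Egr1, Ier3, Junb, Jund and Ier2 were on the same side, at 2.10 ± 0.26, 1.08 ± 0.30, 0.41 ± 0.24, 0.29 ± 0.20 and 0.28 ± 0.17. Fosb stood at -0.58 ± 0.16 and Atf3 at -0.12 ± 0.16. Only Fos, Egr1, Jun and Dusp1 passed in this form, by limma. Its female-minus-male value under IL1-beta was 0.89 ± 0.17 as well, and the difference of these values was 0.00 ± 0.19 in the fit to separate arrays (interval -0.46 to 0.46, limma adjusted p = 0.999) and 0.00 ± 0.22 with pairs. As labelled, the signs oppose each other.

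Jun and Dusp1 behaved in the reverse way. Turned and divided by 2 they stood at -0.97 ± 0.18 and -1.20 ± 0.23, against 0.82 and 0.78 in females under IL1-beta. The difference of the values was 1.80 ± 0.33 for Jun (unadjusted p = 0.00103, adjusted p = 0.138) and 1.98 ± 0.43 for Dusp1 (unadjusted p = 0.00255, adjusted p = 0.194). As labelled, both genes had the same sign on the 2 kinds of array. Egr1 stood at 2.10 turned and 0.24 ± 0.38 under IL1-beta, a difference of -1.86 ± 0.43 (adjusted p = 0.222). With pairs the adjusted p of these differences was 0.181 for Jun, 0.225 for Dusp1 and 0.300 for Egr1. By limma 0 of 10 members passed in this contrast, where 0.209% of all genes did. At an unadjusted p under 0.05 were 3, Jun, Egr1 and Dusp1, where 10.3% of all genes were.

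**Figure D4:**
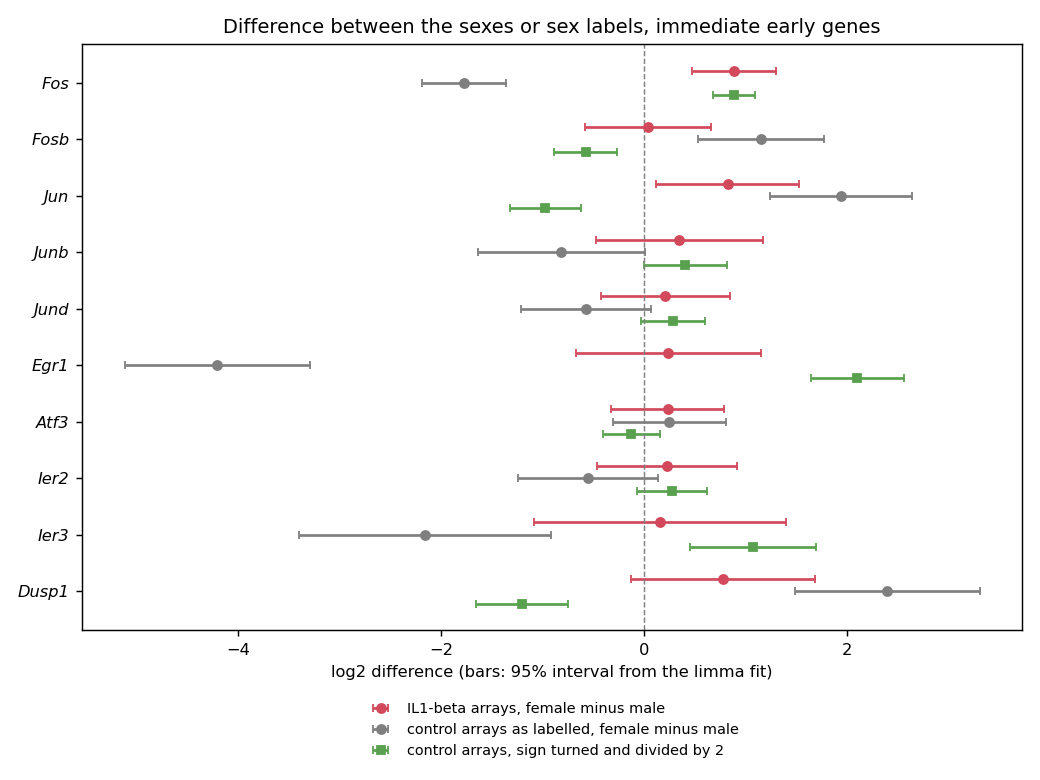
Log2 difference (x axis) between the sexes under IL1-beta (red), between the control arrays as labelled (grey) and between them with the sign turned and divided by 2 (green), for each gene (y axis). Bars are 95% intervals from the limma fit to separate arrays, which for the green values are narrower than with pairs. The red and green values coincide for Fos (0.89 and 0.89) and lie on opposite sides of 0 for Jun (0.82 and -0.97) and Dusp1 (0.78 and -1.20).

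The comparison that the series was designed for, IL1-beta against control, sets the IL1-beta arrays against arrays of the other kind. As labelled, 7 members passed in females, where 57.2% of all genes did. These were Fos (-3.22 ± 0.17), Fosb (-2.02 ± 0.26), Jun (-1.56 ± 0.30), Ier2 (-0.89 ± 0.29), Dusp1 (-1.12 ± 0.38), Junb (1.36 ± 0.35) and Atf3 (1.10 ± 0.23). Array median centring left 5 of them, 3 lower and 2 higher (55.5% of all genes passed). Quantile normalization left 4, all lower (33.1%). In males 6 passed (61.5% of all genes), with Fos at -5.88 ± 0.17, Egr1 at -5.36 ± 0.38, Ier3 at -1.70 ± 0.52, Ier2 at -1.67 ± 0.29, Fosb at -0.91 ± 0.26 and Atf3 at 1.11 ± 0.23. Quantile normalization left 2, Fos and Egr1 (41.9% of all genes passed). When the sign of these control values was turned, 7 passed in females (62.8% of all genes) and 7 in males (58.1%), but other genes.

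In females Fosb (-0.25 ± 0.26) and Jun (0.55 ± 0.30) then did not pass, while Egr1 (-4.70 ± 0.38) and Ier3 (-1.62 ± 0.52) did. Dusp1 changed direction there, to 1.44 ± 0.38 (adjusted p = 0.0143). In males Egr1 (-0.74 ± 0.38) and Ier3 (0.38 ± 0.52) did not pass, while Jun (-2.22 ± 0.30), Junb (1.63 ± 0.35) and Dusp1 (-1.73 ± 0.38) did. Without further normalization Fos, Atf3 and Ier2 passed in both sexes under either sign. The turned values of Fos were -4.55 ± 0.17 in females and -3.66 ± 0.17 in males. Each single comparison was passed by 57.2% to 62.8% of all genes, and the share passing all of them was not counted. After quantile normalization as labelled, Fos passed in both sexes (33.1% of all genes in females, 41.9% in males) and Atf3 and Ier2 in neither. Ier2 also did not pass in females after array median centring (55.5%). For Fosb, Jun, Junb, Egr1, Ier3 and Dusp1 the call in at least 1 sex, or its direction, thus depended on the sign given to the control arrays.

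Averaged over the sexes, where mirrored control values cancel, 7 members passed (69.2% of all genes). The mean over the 4 control arrays lay between -0.04 and 0.31 for each member. The averaged values, such as -4.55 ± 0.12 for Fos and 1.10 ± 0.17 for Atf3, therefore stay close to the liver over pool ratios of -4.33 and 1.13 given above. With the sign turned they were -4.11 ± 0.12 and 1.15 ± 0.17, and 7 members passed again (71.3% of all genes). A response to IL1-beta and the gap between the 2 kinds of array cannot be told apart here. In the interaction as labelled, Fos (2.66 ± 0.25, adjusted p = 0.00159) and Egr1 (4.45 ± 0.54, adjusted p = 0.00461) passed, where 14.3% of all genes did. Both values contain the difference of the control arrays. When its sign was turned Egr1 reversed to -3.97 ± 0.54 (adjusted p = 0.0158) and Fos to -0.89 ± 0.25, which did not pass (adjusted p = 0.111). Jun (2.77 ± 0.42) and Dusp1 (3.18 ± 0.54) then passed, so that 3 members did (3.66% of all genes).

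The genes whose pattern over the 8 arrays was most like the mean of the standardised member profiles were Ppm1m, Klhl35, Git2, Kifc2 and Tmem131l, with r = 0.959 to 0.974. The members themselves correlated with that mean at -0.68 (Atf3) to 0.85 (Ier2), so the mean stands for few of them.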

How the data were processed

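The authors deposited a table of log ratios for each feature, read here as log10 of Cy5 over Cy3, dyes per the labels. The submitters' processing notes name Agilent Feature Extraction. How background and dyes were treated is not given in the sources used here, and neither is that program's version. The base is not stated either: log10 is the scale of that program's ratio, and fold sizes depend on it while p-values do not. Values were multiplied by 3.32 to give log2. An exact 0 was taken as no measurement (4646 to 10324 features per array). Of 45018 features, 33653 had 1 gene symbol in the platform's annotation, 56 had several and 11309 none. A gene is the mean of its features with a value on all 8 arrays (26218 features, 15346 genes).

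Group means were fitted to all arrays with limma 3.58.1 in R 4.3.3 (4 residual and 2.88 prior degrees of freedom), with Benjamini-Hochberg adjustment over all genes, two-sided, at 0.05. The method was tested on simulated data. Members, lists and contrasts were chosen with earlier results of these data known. All members were named. Other list genes were named by smallest p in the sex differences, up to 4 passing or 2 otherwise, and marker lists are given by counts. Genes named for their ratio to the pool were chosen after their values were seen. The 5 genes most alike were named by r. Deviations of same-number arrays correlated at r = -0.43 to 0.05, and the fit has no block. The IL1-beta value of -0.41 means that arrays of unlike number deviated together. Leaving out the block thus does not rest on a lack of structure. The control value of -0.43 has no settled sign, and control arrays of opposite label mirrored each other more with the same number (r = -0.722 and -0.592) than otherwise (-0.519 and -0.478). A form with such pairs as 1 replicate was therefore added after the data had been seen. Promoters are from RefSeq, with 8 of 10 members matched. Channel intensities were not analysed here, nor were slide or scan batches. Alternatives covered centring, quantile normalization, the treatment of zeros, single features, variance settings, array weights, the groups compared, the replicate block, thresholds, the sign of the control arrays and leaving out each array.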

Additional observations from a re-analysis of the deposited data

Results flagged for a closer look

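Fos and Egr1 had IL1-beta minus control values that differed between the sexes by the interaction as labelled. For Fos the female minus the male value was 2.66 ± 0.25 (log2, SE, limma adjusted p = 0.00159). For Egr1 it was 4.45 ± 0.54 (adjusted p = 0.00461). After the control sign was turned, Egr1 reversed to -3.97 ± 0.54 (adjusted p = 0.0158) and Fos to -0.89 ± 0.25 (adjusted p = 0.111). When the difference of the control arrays is turned and divided by 2, the interaction was 0.00 ± 0.19 for Fos (adjusted p = 0.999) and -1.86 ± 0.43 for Egr1 (adjusted p = 0.222). The control arrays enter both forms, and which sign they carry cannot be told from the labels. Groups of 2 arrays are too small for a check of single outlying arrays.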

How the results depend on the processing

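For the counts of members passing, 136 alternative values stayed within 1.5 times and 7 did not. This compares counts and not which members passed. Turning the control sign kept the counts within 1.5 times, although other members passed. Egr1 then reversed in the interaction and Dusp1 in females. Quantile normalization gave 4 members for IL1-beta minus control in females (33.1% of all genes) and 2 in males (41.9%). Averaged over the sexes it gave 4 (43.1%). It gave 6 for the interaction as labelled (26.7%) and 1 (Egr1) for the interaction with the control difference turned (4.09%). That setting gives both kinds of array 1 distribution, which narrows the IL1-beta values and widens the control values. An adjusted p under 0.10 gave 5 in the interaction as labelled (23.2% of all genes). The last of the 7 was for IL1-beta minus control in females without the female IL1-beta array 1. That fit leaves 1 array in the group, so its count is not read as a result about the members. Values whose sign depended on 1 array were all sex differences under IL1-beta that had not passed: Fosb (-0.12 to 0.20), Junb (-0.034 to 0.73), Jund (-0.16 to 0.58), Egr1 (-0.11 to 0.58) and Ier3 (-0.21 to 0.53). Fos kept its direction there in all 19 alternatives, at 0.55 (with the 11th Fos feature in the mean) to 0.94. It passed in none (lowest limma adjusted p 0.176, with array centring). Thresholds, variance settings, array weights, blocks, these arrays alone and leaving out a control array all left its estimate at 0.89. Those alternatives cannot change the direction, so they say nothing on it. For single members, 367 alternative values kept direction and side of the threshold, 13 no longer passed, 3 passed newly and 7 reversed. The 367 include settings that cannot change an estimate.

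With the replicate number as a block, 0 members passed under IL1-beta (0.117% of all genes), 6 on the control arrays (15.9%), 6 in females (53.0%), 6 in males (57.9%), 7 averaged (66.4%), 2 in the interaction as labelled (9.01%) and 0 in the turned form (0 genes), so no count of members moved by over 1.5 times. Deviations of same-number arrays correlated at -0.43 (control) and -0.41 (IL1-beta), and a crossed block, chosen after the data had been seen, gave 7 members (22.4% of all genes) and 0 (0.222%) in these sex differences.

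Single features were counted over 26218 tests and genes over 15346. Over all genes, the 25 calls under IL1-beta became 5 (quantile), 10 (these arrays alone), 59 (single features), 58 (threshold 0.10) and 7 to 23 without 1 array. The 3284 calls on the control arrays became 6766 (quantile), 2058 (these arrays alone), 1516 to 3130 without 1 array and 1087 (same-number pairs). For IL1-beta minus control, 8774 became 5084 in females (quantile) and 10620 became 6614 averaged (quantile). Single features gave 14040 in females, 15041 in males and 17263 averaged, which as shares (53.6%, 57.4% and 65.8%) are below those of genes (57.2%, 61.5% and 69.2%). The 2189 of the interaction became 4103 (quantile), 3565 (threshold 0.10), 1383 (replicate block), 561 (sign turned) and 837 to 1579 without 1 array. The 32 of the turned form became 628 (quantile), 75 (threshold 0.10), 11 (zeros kept), 19 (single features), 15 (crossed block), 9 (same-number pairs), 0 (replicate block) and 0 to 27 without 1 array. The cause was not tested. Signal over background, which limits low ratios, is unknown.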
